A study of Mus musculus with 7 samples.

Results

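Narrow H3K27me3 peaks that lay away from gene ends and were called in both genotypes are described here. They are the control peaks under 8000 bp wide that shared at least 1 bp with a peak of the knockout list and overlapped no start or end of a protein-coding gene, each end extended by 1 kb both ways. They numbered 474 of 3631 control peaks, and 204 of them lay inside a protein-coding gene and 270 between genes. The peaks were drawn from 1356 narrow control peaks away from gene ends, of which 35.0% (95% Wilson interval 32.5 to 37.5) had a knockout peak, compared with 48.1% of narrow control peaks at gene ends. Width, place and overlap chose the peaks, so these shares describe the choice and are not a result about them.

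Trimethylation of histone H3 at lysine 27 (H3K27me3) was profiled by immunoprecipitation of chromatin and sequencing, in interfollicular epidermal cells from back skin of mice at postnatal day 0. Sorting took cells positive for EpCAM and Sca1 with high α6-integrin. Control cells were compared with cells labelled Ring1a/b 2KO, which lack Ring1a and Ring1b. Each genotype had 2 labelled H3K27me3 libraries and 1 list of called peaks, with 3631 peaks in control and 2340 in 2KO cells. The sources used here do not give the Cre driver, the alleles, the number of animals or the genotype of the control mice beyond the word control. Both the antibody label and the list of the 2KO cells name H3K27me3 and were followed here, although the 2KO library titles say H3K27me1. The control input and the libraries of Eed cKO cells were not analysed here. With 1 list per genotype there were no replicates and no test between genotypes, and depth is unknown. A list of called intervals carries no signal height, so the share of cells that hold the mark and the amount per cell cannot be told apart. The lists hold no expression, so the labelled cell type could not be checked against its markers.

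H3K27me3 is laid down by Polycomb repressive complex 2 over silent developmental genes, most often in broad domains around CG-rich promoters. Polycomb repressive complex 1, whose catalytic subunits are Ring1a and Ring1b, ubiquitylates histone H2A at such places, and the complexes can recruit each other. In epidermis, genes of other lineages, such as neuronal channels and patterning factors, are typical carriers of the mark. Narrow marked stretches away from gene ends can cover internal start sites, non-coding genes or distal elements.

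Sequences of microRNAs and of start sites carry what follows. The first are the mature microRNAs of the 3 microRNA genes that lay under these peaks, since their places can be read against the called intervals of both genotypes. Letters are from RefSeq on GRCm38.p6, 5′ to 3′, and capitals mark the seed (bases 2 to 8).
miR-137-5p (chr3:118433865-118433887, plus strand): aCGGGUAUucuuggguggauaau
miR-137-3p (chr3:118433901-118433923, plus strand): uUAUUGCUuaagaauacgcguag
miR-6402 (chr4:91373285-91373307, minus strand): gAGCAGUUuucccaggaacccgc
miR-128-3p (chr9:112118644-112118664, minus strand): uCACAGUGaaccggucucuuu
miR-128-2-5p (chr9:112118679-112118701, minus strand): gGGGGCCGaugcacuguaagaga

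All 3 genes matched the table, and the 5 mature forms had 5 different seeds. Each lay under a 2KO peak as well as under the control peak.

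The others are start sites listed inside the body of a protein-coding gene, listed from the highest to the lowest observed to expected CG ratio (the CGs found over those predicted from the C and G counts). They show that a peak away from both gene ends can still cover an annotated promoter. Each window runs from 250 bases before to 50 bases after the start, on the strand of the gene, from RefSeq on GRCm38.p6, with every CG in capitals. These windows were chosen after the values were seen.
Gdnf start site (chr15:7813477-7813776, plus strand): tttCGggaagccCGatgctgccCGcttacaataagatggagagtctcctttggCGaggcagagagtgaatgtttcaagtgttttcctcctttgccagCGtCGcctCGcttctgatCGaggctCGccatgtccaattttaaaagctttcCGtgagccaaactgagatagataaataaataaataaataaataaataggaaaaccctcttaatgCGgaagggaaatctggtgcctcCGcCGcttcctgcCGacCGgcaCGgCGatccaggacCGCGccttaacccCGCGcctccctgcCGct
Fgf12 start site (chr16:28564902-28565201, minus strand): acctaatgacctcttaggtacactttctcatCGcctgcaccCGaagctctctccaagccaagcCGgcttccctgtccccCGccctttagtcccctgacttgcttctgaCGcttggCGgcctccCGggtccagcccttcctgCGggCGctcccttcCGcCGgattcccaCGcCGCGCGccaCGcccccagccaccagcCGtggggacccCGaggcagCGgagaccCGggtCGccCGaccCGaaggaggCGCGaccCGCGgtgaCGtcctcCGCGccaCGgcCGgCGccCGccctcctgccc
Kcna2 start site (chr3:107101317-107101616, plus strand): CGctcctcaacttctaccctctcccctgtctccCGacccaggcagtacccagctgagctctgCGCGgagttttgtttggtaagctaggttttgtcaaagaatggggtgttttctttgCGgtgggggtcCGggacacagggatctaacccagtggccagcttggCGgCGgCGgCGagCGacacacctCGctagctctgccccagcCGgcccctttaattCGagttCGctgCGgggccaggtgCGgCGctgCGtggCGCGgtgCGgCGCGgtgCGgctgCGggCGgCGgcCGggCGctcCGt
Prdm1 start site (chr10:44458699-44458998, minus strand): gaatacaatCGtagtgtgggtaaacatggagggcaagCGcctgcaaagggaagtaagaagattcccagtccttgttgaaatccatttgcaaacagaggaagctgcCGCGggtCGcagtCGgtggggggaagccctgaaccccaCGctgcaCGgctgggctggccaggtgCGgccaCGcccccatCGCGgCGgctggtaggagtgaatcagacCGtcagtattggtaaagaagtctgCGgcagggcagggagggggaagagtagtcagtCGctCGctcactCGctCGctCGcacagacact
Slc12a5 start site (chr2:164967738-164968037, plus strand): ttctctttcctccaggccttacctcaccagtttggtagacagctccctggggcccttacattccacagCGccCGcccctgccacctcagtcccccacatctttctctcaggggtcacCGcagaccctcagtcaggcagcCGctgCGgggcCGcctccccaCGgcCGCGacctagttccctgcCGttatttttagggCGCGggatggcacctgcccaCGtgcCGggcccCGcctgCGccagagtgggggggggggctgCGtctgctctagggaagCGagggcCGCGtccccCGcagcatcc
Gabra5 start site (chr7:57510010-57510309, minus strand): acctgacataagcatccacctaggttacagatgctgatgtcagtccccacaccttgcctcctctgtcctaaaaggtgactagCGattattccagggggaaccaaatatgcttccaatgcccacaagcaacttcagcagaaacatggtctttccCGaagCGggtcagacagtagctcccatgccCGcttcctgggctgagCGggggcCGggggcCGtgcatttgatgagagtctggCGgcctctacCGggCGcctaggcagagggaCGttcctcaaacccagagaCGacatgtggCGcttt

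The lowest ratio of those shown comes from Sptbn4, which encodes a spectrin of the axon initial segment.
Sptbn4 start site (chr7:27394457-27394756, minus strand): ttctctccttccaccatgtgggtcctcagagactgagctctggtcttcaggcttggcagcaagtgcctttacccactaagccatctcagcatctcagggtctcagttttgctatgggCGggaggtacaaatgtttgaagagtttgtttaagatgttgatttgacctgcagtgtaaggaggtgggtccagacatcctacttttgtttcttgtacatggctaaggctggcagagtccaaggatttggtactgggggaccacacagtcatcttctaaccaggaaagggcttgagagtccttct

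The window at Fgf12 held 34 CGs and that at Kcna2 held 31, against 1 at Sptbn4. The ratio was 1.11 at Gdnf, 0.949 at Fgf12, 0.932 at Kcna2, 0.766 at Prdm1, 0.616 at Slc12a5, 0.541 at Gabra5 and 0.056 at Sptbn4.

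Called width came next. The control peaks were 627 to 7924 bp wide, with a median of 4018 bp (quartiles 2765.5 and 5261.75 bp), and covered 1.95 Mb. The 2KO peaks that met them together spanned 658 bp to 42.5 kb per control peak, with a median of 4986 bp. The median log2 ratio of called bases (the summed width of those 2KO peaks over the control width) was 0.35, with quartiles of -0.011 and 0.83, which is a median fold of 1.27. At 171 of the 474 peaks (36.1%, 31.9 to 40.5) the 2KO width was at least 1.5-fold higher, against 22.7% of all 1721 shared control peaks. At 27 peaks (5.70%, 3.94 to 8.16) it was at least 1.5-fold lower, against 14.2% of all shared control peaks. Of the narrow shared peaks at gene ends, 26.8% were at least 1.5-fold wider and 9.09% at least 1.5-fold narrower, with a median fold of 1.20.

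The size of the width ratio changed with the list that set the limit of 8000 bp. Over all 1721 shared control peaks, with no limit on width, the median log2 ratio was 0.13. A limit on the control width leaves the 2KO width free to be large. When 2KO peaks under the same limit and away from gene ends were taken instead, 493 peaks gave a median log2 ratio of -0.023 (quartiles -0.68 and 0.42). Among the 379 peaks whose 2KO peak was also under the limit, the median was 0.21. Within the 474 peaks the ratio was highest at the narrowest ones, at a median fold of 2.06 under 2 kb, 1.36 from 2 to 4 kb, 1.23 from 4 to 6 kb and 1.05 from 6 to 8 kb. No direction of change in width is therefore drawn for the set as a whole. The curves of the width ratio for the different choices show how far the list used moves the whole distribution.

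**Figure D1:**
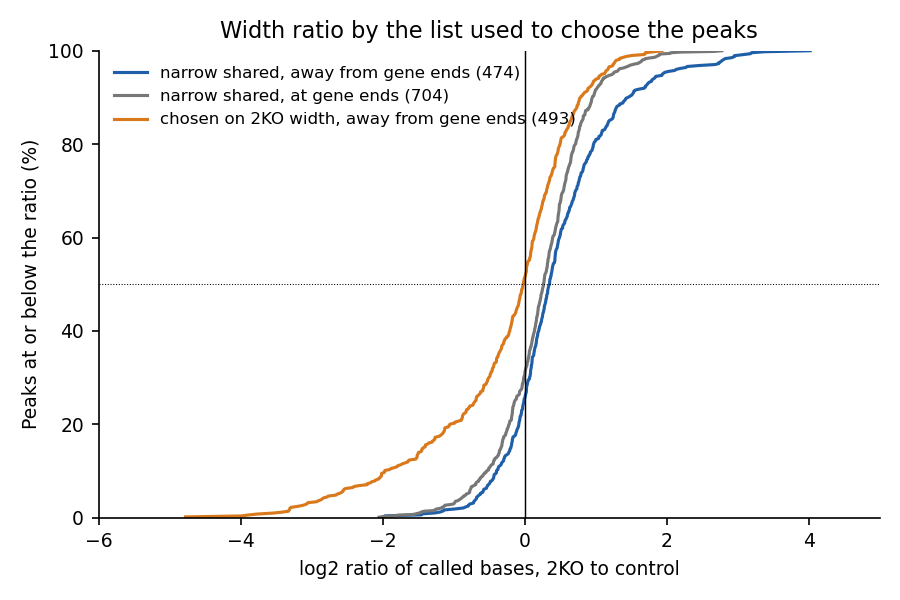
Cumulative share of peaks (y axis, %) by the log2 ratio of called bases, 2KO to control (x axis), for the 474 narrow shared peaks away from gene ends, the 704 at gene ends and the 493 chosen on 2KO width. The curve of the 493 peaks crosses 50% at -0.023, to the left of the 474 peaks at 0.35 and the 704 peaks at 0.27.

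The place of the called intervals was compared next. The choice of narrow peaks that share bases limits how far apart the intervals can lie, so these values are a description. In total 246 of the 474 control peaks (51.9%, 47.4 to 56.4) lay wholly under 2KO peaks, against 41.7% of all shared control peaks. The mean covered share was 91.8%. Narrow shared peaks at gene ends were similar, with 51.1% wholly covered and a mean covered share of 90.2%. There were 431 pairs in which 1 control peak met 1 2KO peak and neither met another. In 215 pairs both 2KO edges lay outside the control edges, in 64 both lay inside, and in 152 the interval was shifted. Centres were a median of 416 bp apart (quartiles 176 and 793 bp), and in 90 pairs both edges agreed within 500 bp. Slit3, which encodes an axon guidance ligand, gives an example: the control peak at chr11:35539927-35546887 was 6.96 kb wide, the 2KO peak 7.06 kb, and 99.0% of the control peak was covered.

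Around 8 of these peaks the map of called intervals shows the kinds of relation that occurred. Kcna2, which encodes a voltage-gated potassium channel of axons, and Mir137 had a 2KO peak that reached past the control peak on both sides. Gdnf, which encodes a neurotrophic ligand of the Ret receptor, had a shorter 2KO peak. The same held for Prdm1, which encodes a transcriptional repressor of epidermal and lymphoid differentiation. It also held for a peak 39.0 kb from Otx2, which encodes a homeodomain factor of the forebrain and eye. A separate domain that reached the Otx2 gene was called in both lists. Its nearer edge lay 28.0 kb from the centre of that peak in control and 27.8 kb in 2KO. At Onecut3, Epha10 and Uncx, 1 long 2KO peak ran over several control peaks.

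**Figure D2:**
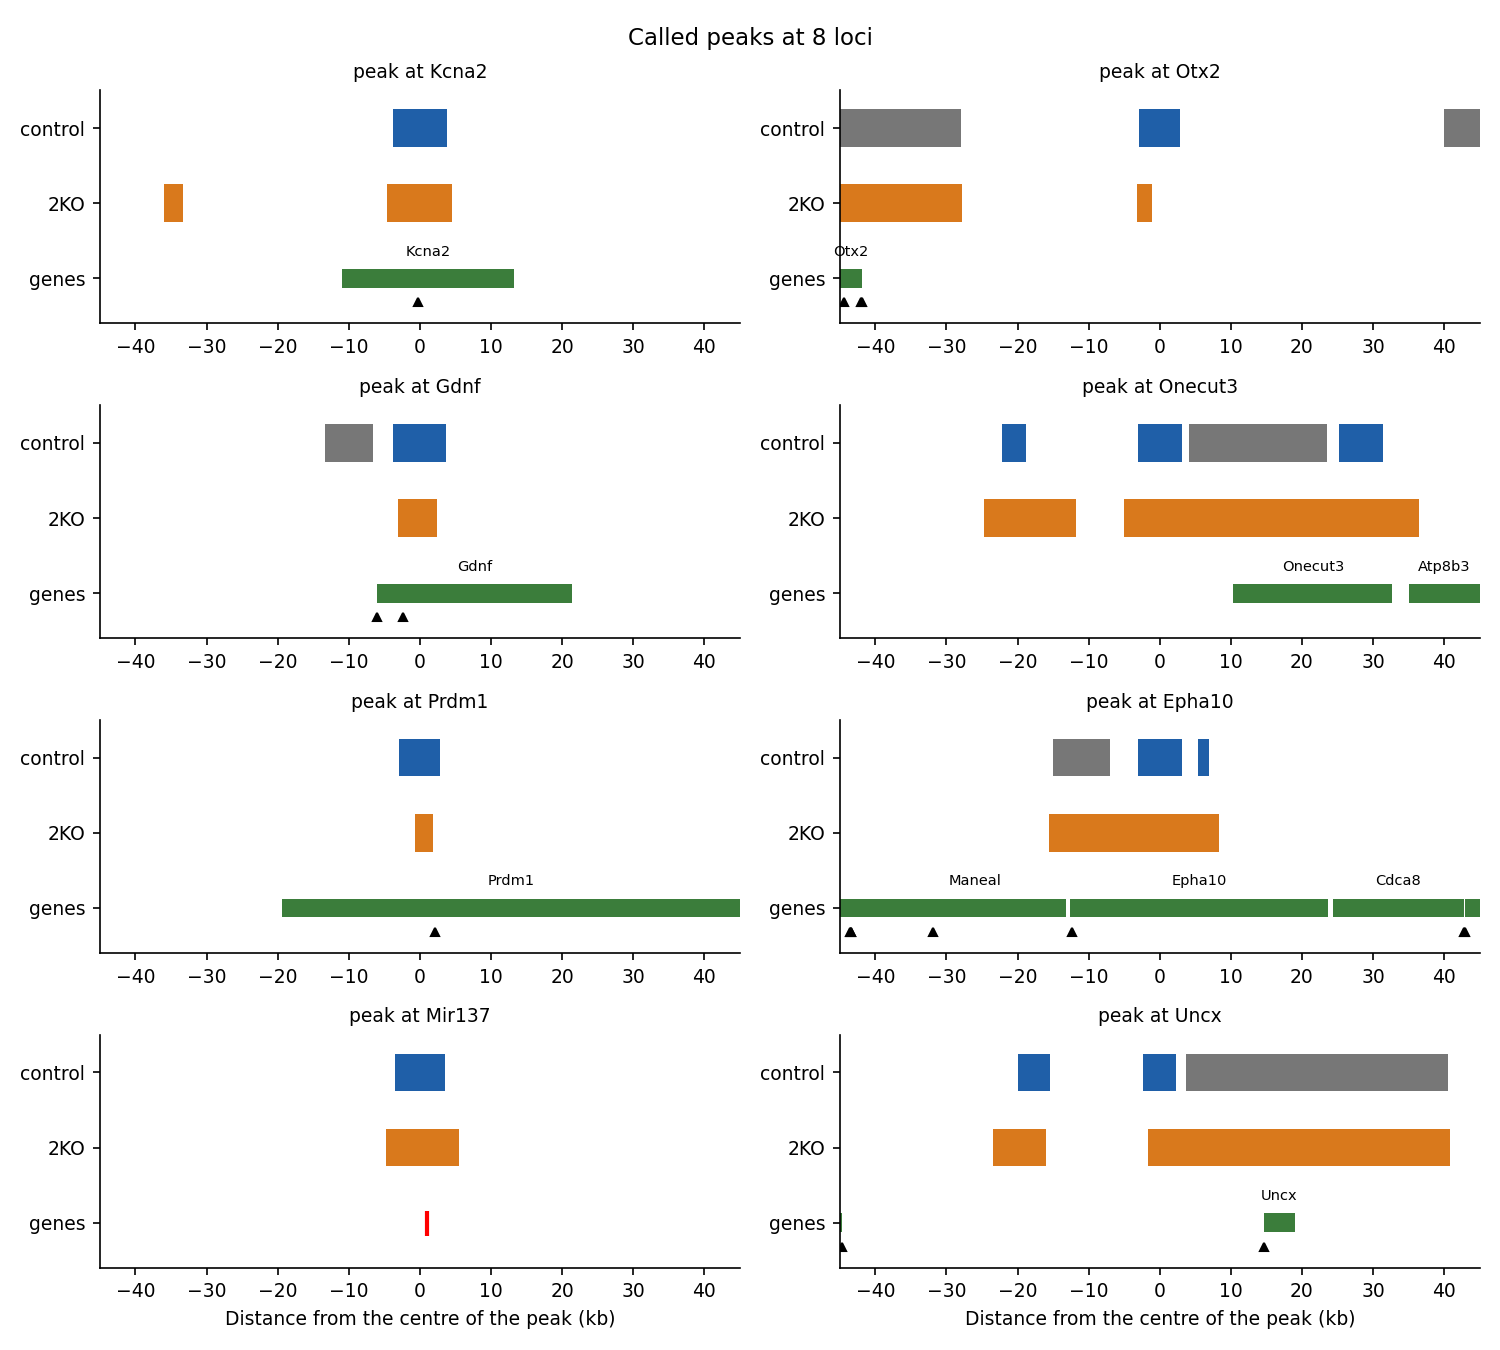
Called peaks in control and 2KO cells at 8 loci, by distance from the centre of the named peak (x axis, kb). Blue bars are narrow shared peaks away from gene ends, grey bars other control peaks and orange bars 2KO peaks; green bars are protein-coding genes, triangles listed start sites and the red mark the microRNA gene. One 41.6 kb 2KO bar spans 3 control bars at Onecut3, and the 2KO bar at Prdm1 is shorter than its 5.74 kb control bar.

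At some places 1 long 2KO peak lay over several control peaks. For 40 of the 474 peaks (8.44%, 6.26 to 11.3), the 2KO peak also met another control peak, against 5.00% of all shared control peaks and 1.99% of narrow shared peaks at gene ends. At 35 of the 40 the 2KO peak met 2 control peaks in all, and at 5 it met 3. The gap to the nearest other control peak was 793 to 7678 bp, with a median of 1599 bp. Narrow control peaks without a 2KO peak had another control peak within 5 kb more often (26.3%) than these 474 (19.6%). At a joined peak the ratio defined above is high by construction, since it sets the whole 2KO peak against 1 of the control peaks under it: 39 of the 40 passed 1.5-fold, with a median of 3.65, and the 431 pairs had a median of 1.22. Set against all control peaks that each one met, the 30 joining 2KO peaks had a median fold of 1.23 (0.459 to 2.64). Of these, 9 were at least 1.5-fold wider than those control peaks together, 6 at least 1.5-fold narrower, and 10 spanned fewer bases. Other 2KO peaks that met the same control peaks are not in these sums.

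The 3 longest joining intervals lay at genes of transcription factors. At Uncx, which encodes a homeodomain factor of somites and neurons, a 4.65 kb control peak (chr5:139526856-139531505) and a domain of 36.9 kb, 41.5 kb together, met a 2KO peak of 42.5 kb. At Onecut3, which encodes a cut homeodomain factor, control peaks of 6.25 kb (chr10:80481435-80487685) and 6.12 kb (chr10:80509822-80515946) flanked a control domain of 19.4 kb, and 1 2KO peak of 41.6 kb covered all 3, which held 31.8 kb. At Ptf1a, which encodes a basic helix-loop-helix factor of pancreas and hindbrain, a 6.41 kb control peak (chr2:19429140-19435553) and a 22.6 kb domain, 29.0 kb together, lay under 1 2KO peak of 35.1 kb. At these 3 genes the 2KO interval was close to or somewhat above the control bases it joined.

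Other factor genes differed in direction. Near Nkx1-1, a homeodomain factor gene, control peaks of 2.83 and 12.2 kb met a 2KO peak of 23.7 kb, and in Tfap2d, an AP-2 factor gene, 14.6 kb of control peaks met one of 22.6 kb. Near Foxd2, a forkhead factor gene, a 4.56 kb peak and a domain of 37.4 kb met a 2KO peak of 20.8 kb, and near Sox1, an HMG-box factor gene, a 4.52 kb peak and a domain of 32.6 kb met one of 21.8 kb. The joining 2KO peak was longer than the control bases in the former pair of genes and shorter in the latter.

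Some joining intervals lay at other kinds of gene. In Epha10, which encodes an Eph receptor, control peaks of 6.25 kb (chr4:124891004-124897252) and 1.47 kb (chr4:124899540-124901011) and a further peak of 8.04 kb, 15.8 kb in sum, met the same 23.9 kb 2KO peak. In Rtbdn, which encodes a retinal riboflavin-binding protein, a 2.67 kb peak was 1 of 3 control peaks, 19.4 kb in sum, under a 24.2 kb 2KO peak. Unc45b, which encodes a myosin chaperone of muscle, held 3 of the peaks. A 2KO peak of 10.4 kb joined those of 1.56 and 2.37 kb, and the remaining one, of 6.05 kb, met a 2KO peak of 12.9 kb. Not every long 2KO peak joined control peaks: in Myt1l, which encodes a neuronal zinc finger factor, a 5.35 kb control peak met 1 2KO peak of 14.1 kb that met no other control peak.

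Peaks that were shorter in the 2KO list were fewer. Near Zfhx3, which encodes a zinc finger homeodomain factor, the interval was 6.94 kb in control (chr8:108238295-108245232) and 1.77 kb in 2KO, and near Lbx1, which encodes a homeodomain factor of limb muscle and dorsal spinal cord, 5.92 kb (chr19:45279230-45285152) and 1.51 kb. Both had a log2 ratio of -1.97, and 25.5% of each control peak was covered. The interval near Otx2 (chr14:48706613-48712369) was 5.76 kb in control and 2.11 kb in 2KO, with a log2 ratio of -1.45. In Prdm1 (chr10:44453707-44459442) it was 5.74 kb and 2.52 kb, with 44.0% covered, and the start site printed above lay outside the 2KO interval. Arhgef15, which encodes a guanine nucleotide exchange factor, had 7.66 kb in control and 3.19 kb in 2KO.

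**Figure D3:**
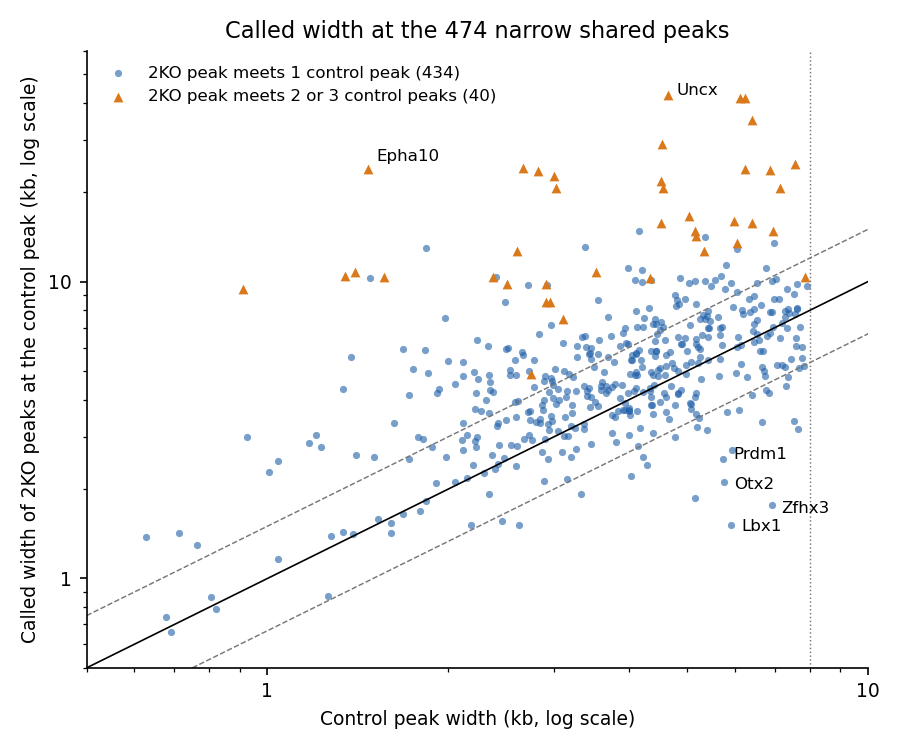
Called width of 2KO peaks (y axis, kb, log scale) against control peak width (x axis, kb, log scale) for the 474 peaks. The solid line marks equal width, dashed lines a 1.5-fold difference and the dotted line the 8 kb limit; the 40 triangles, whose 2KO peak meets another control peak, lie above the upper dashed line except 1, near Atp5g3.

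The widest peaks inside genes gave a mixed picture. Pax5, which encodes a B cell factor, had 7.78 kb in control and 6.04 kb in 2KO. Cacna1e, which encodes a calcium channel subunit, had 7.70 and 7.04 kb, and Car7, which encodes a carbonic anhydrase of neurons, 7.63 and 8.14 kb. Asic2, which encodes an acid-sensing channel, had 7.61 and 9.86 kb, and Kcna2 7.54 and 9.09 kb. Gdnf had 7.44 and 5.50 kb, with 73.8% of the control peak covered. In Erfl a 7.57 kb peak and a control domain of 20.6 kb, 28.2 kb together, met 1 2KO peak of 24.9 kb. Between genes the widest peak lay 2.41 kb from Josd2, a deubiquitinase gene, with 7.92 kb in control and 9.67 kb in 2KO. Near Sirpa, which encodes a receptor of myeloid cells, the widths were 7.82 and 5.20 kb.

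Peaks inside and between genes gave similar values. The median fold was 1.27 inside and 1.28 between genes, and 65 of 204 and 106 of 270 were at least 1.5-fold wider, 11 and 16 at least 1.5-fold narrower. Of all narrow control peaks away from gene ends, 35.1% inside genes and 34.8% between genes were shared. The 474 peaks lay inside genes about as often (43.0%) as the 882 narrow control peaks without a 2KO peak (42.7%), which are called control-only below.

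Shared and control-only peaks differed in their place among genes, which had not been used to separate these groups. The distance to the nearest end of a protein-coding gene had a median of 16.4 kb for shared and 29.1 kb for control-only peaks. Only 49 shared peaks (10.3%, 7.91 to 13.4) lay over 100 kb from a gene end, against 193 control-only peaks (21.9%, 19.3 to 24.7). Genes that held a shared peak had a median length of 62.1 kb, compared with 141 kb for control-only peaks. The median over all 21631 protein-coding genes was 17.3 kb, and a peak inside a gene and over 1 kb from both ends is by its choice more often in a long gene. Along the gene, the 156 shared peaks for which the table gave a strand had a median place at 44.8% of the gene and the control-only peaks at 47.5%. A control peak at a gene end lay within 50 kb of 37.3% of shared peaks (33.1 to 41.8) and of 25.4% of control-only peaks (22.6 to 28.4). Shared peaks were also wider than control-only ones (median 4018 against 3318.5 bp), and its part in these differences was not tested. Intervals cover counting error only, and neighbouring peaks are not independent.

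The ends of the host gene, or of the nearest gene for a peak between genes, carried a control peak at about the same rate in both groups, at 35.9% of shared and 39.0% of control-only peaks. In the 2KO list the shares differed, but the same list had separated the groups, so this is a description only. A 2KO peak marked those gene ends at 35.4% of shared peaks. When the 2KO peak over the shared peak itself was left out, since it can reach the gene end, the share was 26.4% (22.6 to 30.5), against 16.3% (14.0 to 18.9) for control-only peaks. Between genes the shares were 24.4% (19.7 to 29.9) and 12.7% (10.1 to 15.9). Inside genes they were 28.9% (23.1 to 35.5) and 21.2% (17.4 to 25.6), with intervals that overlap. Shared peaks also lay nearer to gene ends (median 16.4 against 29.1 kb), and the part of this distance in the shares was not tested. Ebf1, which encodes a factor of B cells and adipocytes, was marked at a gene end in both lists and held 3 of the peaks, of 3.34, 1.01 and 2.65 kb, which had 6.53, 2.28 and 5.79 kb in 2KO. The ends of Tbx3, which encodes a T-box factor of limb and mammary gland, were marked in control only, although peaks of 1.93 and 3.55 kb at 106 and 20.4 kb from the gene had 2KO peaks of 4.35 and 5.72 kb.

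Some genes had several of these peaks at a distance. Uncx was the nearest gene of 4 peaks, and those other than the joined one measured 2.98, 4.73 and 2.89 kb in control and 3.39, 5.31 and 2.14 kb in 2KO. Atp5g3, which encodes a subunit of mitochondrial ATP synthase, was also nearest to 4 peaks, at 66.6 to 215 kb. In all, the 204 peaks inside genes fell in 189 genes and the 270 between genes had 235 nearest genes.

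Gene lists were read by the host gene for peaks inside genes and by the nearest gene for peaks between genes. The 17 lists are symbol patterns or written lists of genes. Between genes, 49 of 270 shared peaks (18.1%, 14.0 to 23.2) were nearest to a gene of 4 lists of transcription factors (homeobox and POU, T-box to Sox, basic helix-loop-helix and Ebf, zinc finger), compared with 15.6% (12.7 to 19.1) of control-only peaks. Of these 49 peaks, at 40 genes, 20 (40.8%) were at least 1.5-fold wider and 4 (8.16%) at least 1.5-fold narrower in 2KO, near the shares of all 270 (39.3% and 5.93%). Inside genes the same lists held 10 of 204 shared peaks (4.90%, 2.68 to 8.79) and 37 of 377 control-only peaks (9.81%, 7.20 to 13.2). For homeobox and POU factors alone these counts were 3 and 22, the 22 lying in 8 genes. The counts are not of independent peaks, and no test was made of any list.

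Homeobox genes near shared peaks included Pax7 and Barx1. Pax7, which encodes a factor of muscle stem cells, lay 14.7 kb from a peak that was 7.29 kb wide in control cells and 7.97 kb in 2KO cells. Barx1, which encodes a factor of stomach and teeth, lay 62.3 kb from one of 7.30 and 4.46 kb. Both had a 2KO peak by the choice of the set, and the widths differed in opposite directions.

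Ion channel and transmitter receptor genes held 18 of 204 shared peaks inside genes (8.82%, 5.65 to 13.5) and 15 of 377 control-only peaks (3.98%, 2.43 to 6.46). These pooled lists hold 326 of the 21631 protein-coding genes. Within the pool, sodium, calcium and related channel genes went the other way, with 2 shared (0.98%) and 6 control-only peaks (1.59%). At 7 of the 18 (38.9%) the 2KO width was at least 1.5-fold higher, a share near the 31.9% of all 204 inside genes, and 2 of these 7 were the joined peaks in Grid2ip. Potassium channel genes held 7 peaks, among them those in Kcna2, Kcnab1, Kcng2, Kcnip4, Kcnn2 and Kcnt1, against 5 control-only peaks. In Kcnab1, which encodes a beta subunit, the widths were 4.59 and 4.85 kb, and in Kcnt1, which encodes a sodium-activated channel, 4.42 and 5.64 kb. Receptor genes held 9 peaks, 2 of them in Grid2ip, whose product binds a glutamate receptor and is not one, against 4 control-only peaks. The Gabrb1 peak, in a gene of a GABA receptor subunit, had 5.56 kb in control and 10.1 kb in 2KO, that of Gabra5 5.25 and 7.49 kb, and that of Grik2, which encodes a kainate receptor subunit, 2.48 and 8.56 kb. In Drd2, which encodes a dopamine receptor, the widths were 1.61 and 1.54 kb. In Adra1b, which encodes an adrenergic receptor, they were 5.96 and 8.19 kb.

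Genes of the skin itself were also counted. Of 130 keratin and epidermal differentiation genes, which make up 0.601% of all protein-coding genes, 0 held or were nearest to a shared or a control-only narrow peak away from gene ends. Among 32 hair follicle genes (0.148% of all) only Msx1, which encodes a homeodomain factor of ectodermal appendages, was nearest to a shared peak (3.16 kb in control and 3.01 kb in 2KO, 91.9 kb from the gene). Control-only peaks had 19 such cases between genes, at 8 genes, and 5 inside genes. Among 21 Merkel cell genes Rab3c was nearest to 1 shared peak, and among 34 Polycomb genes Aebp2, which encodes a cofactor of Polycomb repressive complex 2, was nearest to 1. Control-only peaks had 1 case inside and 1 between genes for the Merkel list, and 2 and 4 for the Polycomb list.

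**Figure D4:**
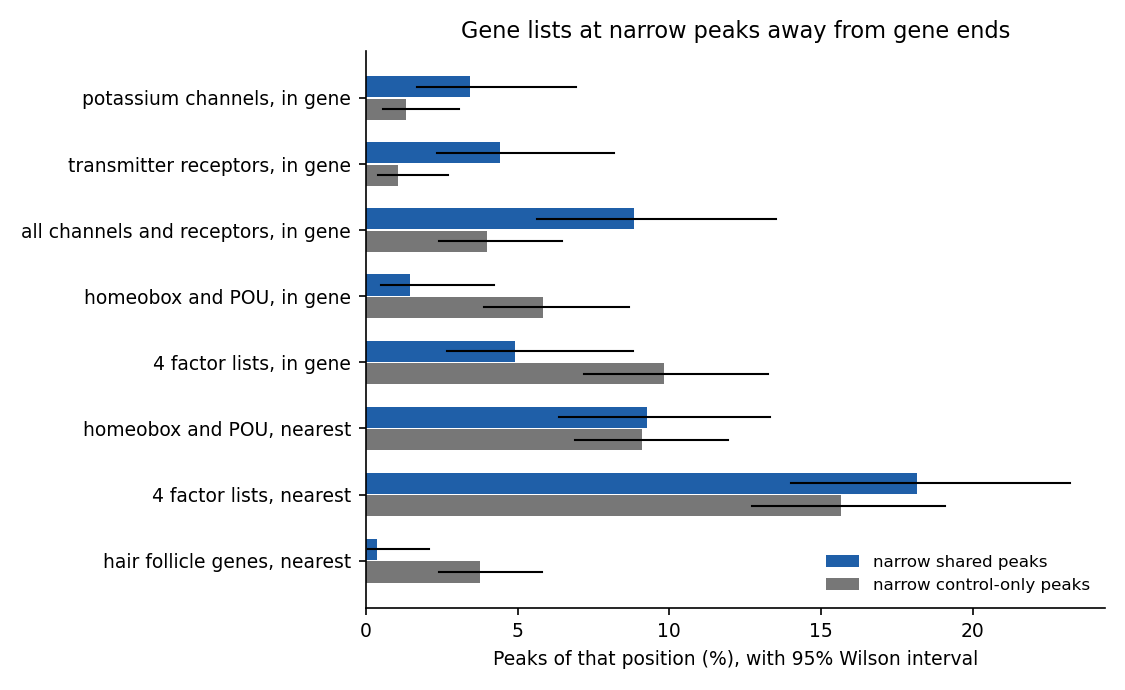
Share of narrow peaks away from gene ends (x axis, %) whose host gene (in gene) or nearest gene (nearest) is in the list, for shared and control-only peaks, with 95% Wilson intervals as lines. The bars for all channels and receptors are 8.82% and 3.98%, and those for the 4 factor lists in genes 4.90% and 9.81%.

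The cell adhesion genes Nrxn2, Nrxn3, Lrrc4c and Dscaml1, which act at synapses, each held 1 shared peak, and none of these 4 differed by 1.5-fold. The adhesion list held 1.96% of shared peaks inside genes, near the 2.12% of control-only peaks. The Nrxn3 peak was 4.36 kb in control and 3.83 kb in 2KO, and that of Lrrc4c 3.44 and 3.77 kb. Of the signalling list, Fgf12, Fgf14, Fgf18 and Wnt8b held 1 peak each, or 1.96% of shared peaks inside genes, against 0.80% of control-only peaks. That of Wnt8b was joined to another control peak in 2KO. The Fgf12 peak was 2.33 kb in control and 6.08 kb in 2KO. Solute carrier genes held 5 shared peaks inside genes (2.45%), near the 2.39% of control-only peaks. Slc12a5, which encodes the chloride exporter of mature neurons, held 2 of the 5. They were 5.25 and 3.13 kb wide in control and 5.92 and 3.51 kb in 2KO.

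Start sites inside gene bodies lay under 49 of the 474 peaks (10.3%, 7.91 to 13.4), compared with 6.92% (5.42 to 8.78) of control-only peaks. Shared peaks were wider (median 4018 against 3318.5 bp), and the part of width in the start site shares was not tested. Under the shared peaks lay 59 listed sites of 48 genes, each by definition a site of a gene that held the peak. For 23 of these genes the table listed no start site outside the peak, and for 25 it did. Of the 59 sites 56 lay under a 2KO peak too. The sites lay at a median of 548 bp from the peak centre, with 28 within 500 bp and 45 within 1000 bp. As a share of the distance from centre to edge, the median was 0.29. It was 0.27 at narrow shared peaks at gene ends and 0.39 at control-only peaks. Measured along the gene from the peak centre, with negative values upstream, the sites printed above lay at -267 bp in Kcna2, 127 bp in Fgf12 and -2422 bp in Gdnf. The Fgf12 site lay 188 kb downstream of the end at which the gene span starts, and the Gabra5 site 81.0 kb.

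The CG content of the windows at these coding sites was close to that of other promoters. Their median GC content was 59.7%, with a median of 15 CGs in 300 bases and an observed to expected ratio of 0.603. The ratio was over 0.6 at 31 sites (52.5%), against 53.3% at control-only peaks, 50.8% at narrow shared peaks at gene ends and 48.1% of all 21045 listed coding start sites. Start sites of long non-coding RNA genes lay under 34 peaks (7.17%), and 48 of their 49 sites were under a 2KO peak. Their median ratio was 0.290, against 0.436 at control-only peaks, 0.459 at narrow shared peaks at gene ends and 0.245 over all such sites. The share over 0.6 was 16.3%, against 24.6%, 39.8% and 14.0% in the same order. Sites of the same gene that lay a few bases apart were counted separately, so the 49 sites, of 34 genes, are not independent. Sites of either kind lay under 79 shared peaks (16.7%, 13.6 to 20.3) and 109 control-only peaks (12.4%, 10.3 to 14.7). Most of the 474 peaks thus held no listed start site.

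**Figure D5:**
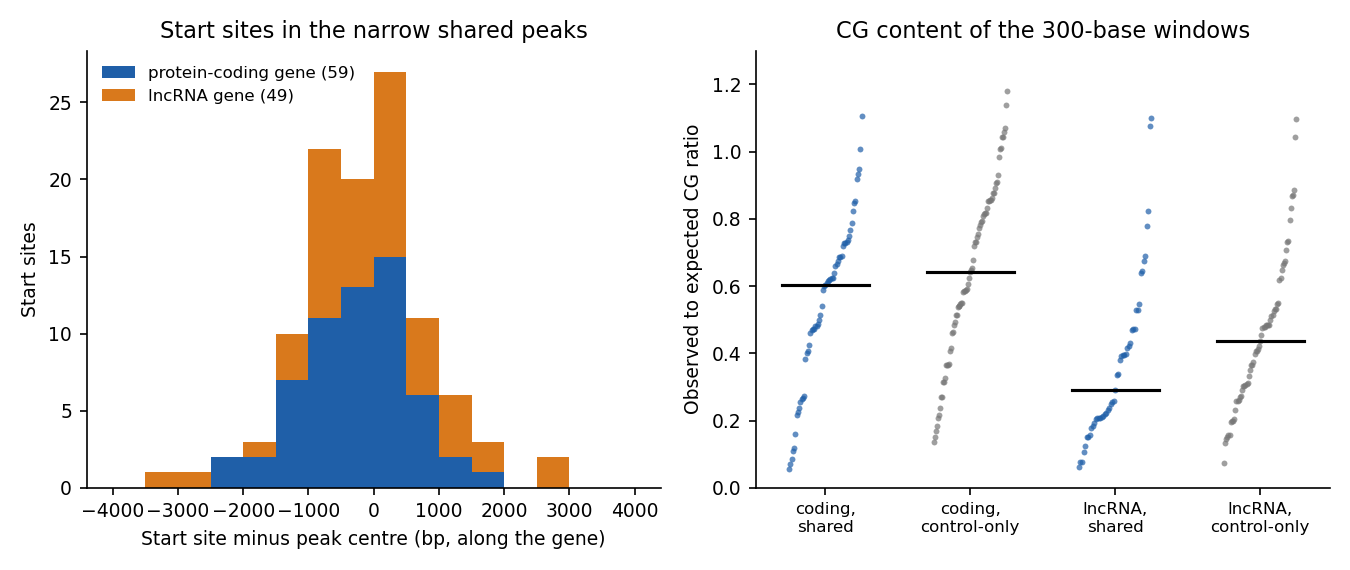
Left, number of listed start sites (y axis) by distance from the centre of the narrow shared peak (x axis, bp, along the gene), for coding genes (59) and lncRNA genes (49). Right, observed to expected CG ratio (y axis) of the window at each start site under shared and control-only peaks, with the median as a bar, at 0.603 and 0.642 for coding and 0.290 and 0.436 for lncRNA genes.

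The microRNA genes differed in how much of the called interval was kept. Mir137, the gene of a brain microRNA, lay under a control peak of 7.04 kb (chr3:118429285-118436328) and a 2KO peak of 10.2 kb that covered all of it. That control peak lay 126 kb from the nearest protein-coding gene, Dpyd. Mir6402, in Elavl2, a gene of a neuronal RNA-binding protein, lay under a control peak of 7.53 kb (chr4:91368301-91375828), of which 45.1% was covered by a 2KO peak of 3.40 kb. Mir128-2, in Arpp21, whose microRNA is abundant in neurons, lay under 4.77 kb in control (chr9:112116524-112121289) and 3.85 kb in 2KO, with 80.8% covered. The 2KO peak at Mir6402 was shorter and still included the microRNA.

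At the limits of the choice, the widest peak included was 7924 bp, near Josd2, and the narrowest left out were 8039 bp, at Apc2 and Dbx1. The nearest included peak to a gene end was 1030 bp away, at Cd3g, and the farthest left out 990 bp, at Lrrc2. Of the 882 control-only peaks, 2 lay within 1 kb of a 2KO peak, the closest 643 bp away near Nkx6-3, and 37 (4.20%) lay within 5 kb.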

How the data were processed

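For each genotype the authors deposited 1 list of H3K27me3 intervals (chromosome, start, end) without height or score. The submitters' processing notes name Bowtie2 2.3.3.1, SAMtools 1.9 and the mm10 build. Caller, threshold, input use and pooling of libraries, not given in the sources used here, can each change which peaks were called and how wide they are.

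Overlaps (at least 1 bp), widths and shares with 95% Wilson intervals came from Python 3.11.15 (numpy 2.4.6, pandas 2.3.3, scipy 1.17.1). Deposited starts were taken to count from 0, and printed positions count from 1. Genes and sequences came from RefSeq tables of GRCm38.p6, the assembly of mm10. The code was tested on simulated data: all 994 peaks kept by construction were found, with 0 wrong. Each simulated peak was centred on 1 isolated control peak, so joined peaks, shifted edges, summed 2KO peaks and gene ends were not tested. The members and the gene lists were chosen with earlier results of these data known. Named were the widest peaks inside and between genes, the widest per gene list, the 5 highest and lowest ratios in each position, genes with 3 peaks and peaks at microRNA genes; Fgf12, Tbx3, Sox1, Myt1l, Drd2, Grik2, Lrrc4c, Kcnip4, Kcnn2, Sptbn4 and the peaks at the limits fall outside this rule and were chosen after their values were seen. Alternatives covered overlap, width limit, window at gene ends, gene set, equal numbers of peaks, merging and autosomes. Some items are not reported here. Figures were drawn with matplotlib 3.10.9.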

Additional observations from a re-analysis of the deposited data

How the results depend on the processing

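No paired analysis was possible because replicates were not listed separately, with 1 list of peaks per genotype, so leaving out a replicate was not possible either. Of 70 planned values, 57 stayed within counting error or, for counts, within 1.5 times, 13 moved and 0 reversed. With at least 50% of both the control and the 2KO peak shared, 27.4% of narrow control peaks away from gene ends were shared, the median log2 ratio was 0.22, 21.5% were at least 1.5-fold wider and the median covered share was 98.9%. With as many of the widest control peaks as there were 2KO peaks, 259 peaks were left, 42.0% were shared, the median log2 ratio was 0.20, 25.1% were wider, 9.27% narrower and the median covered share was 97.7%. A width limit of 6000 bp gave a median log2 ratio of 0.42. With no window at gene ends 48.0% of the peaks lay inside genes, and with a window of 5 kb 37.7%. Of 7 values added after the data were seen, 3 moved and 1 reversed. In the 1-to-1 pairs 30.4% were at least 1.5-fold wider. Peaks chosen on 2KO width had a median log2 ratio of -0.023, with 17.2% wider and 27.6% narrower. There the limit acts on the other list. The depth behind the lists is unknown, so a place without a called peak is not a place without the mark.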

Other observations

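Pseudogenes lay under 21 of the 474 shared peaks (4.43%, 2.92 to 6.68), compared with 12 of 882 control-only peaks (1.36%, 0.78 to 2.36) and 3 of 704 narrow shared peaks at gene ends (0.43%). Of these 21, 17 lay between genes, and 16 were covered to at least 90% in 2KO, as were 72.6% of all 474. The peak over Rn18s-rs5, an 18S ribosomal RNA pseudogene (chr17:39842892-39848951), was 6.06 kb in control and 6.04 kb in 2KO, with 99.6% covered. Reads from near-identical copies cannot be told apart, and the part of such reads in these calls was not tested. Long non-coding RNA genes overlapped shared peaks about as often (20.7%) as control-only peaks (20.2%).

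The share of narrow control peaks away from gene ends that had a 2KO peak varied between chromosomes. On X it was 2 of 33 (6.06%, 1.68 to 19.6), and at gene ends on X 10 of 32 (31.2%). It was 16.4% on chromosome 3 and 17.2% on chromosome 15, against 49.5% on chromosome 4 and 55.9% on chromosome 17. At gene ends the shares on chromosomes 3, 4 and 17 were 43.8%, 44.3% and 46.2%. The sex of the animals is not given in the sources used here, and the part of sex or of input correction was not tested.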
